A study of Caenorhabditis elegans with 3 samples.

Results

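Worms have 4 genes for glyceraldehyde-3-phosphate dehydrogenase (GAPDH), gpd-1, gpd-2, gpd-3 and gpd-4, and the sites of the nuclear hormone receptor NHR-25 at these genes are described here. The genes were taken by name from 19973 nuclear protein-coding genes of the Ensembl annotation. They were chosen by values of these same data, the optimal summits, their replicate ranks and the half-site at the summit, so those values are given as a description. A bound site was assigned to a gene when its summit, the position of highest signal, lay between 2000 bp upstream of the first annotated transcript start and the end of the gene. The sites were those of the optimal list, the 4548 regions on the ce11 build that passed the authors' threshold on reproducibility. By that rule 1 site belonged to these genes, in the windows of gpd-2 and of gpd-3 alike, and gpd-1 and gpd-4 had 0.

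The data came from chromatin immunoprecipitation and sequencing of mixed-sex L2 larvae of Caenorhabditis elegans, taken as whole animals, in 3 biological replicates that form a single group. The strain, OP33, carried the unc-119(ed3) mutation on chromosome III and the integrated transgene wgIs33, from which NHR-25 is made with GFP and FLAG fused to its C-terminal end. No group without the transgene was analysed here, so there was no contrast between genotypes, and whole larvae do not show in which tissue a site was bound. Replicates 1 and 2 shared their labels for worm source and size selection, while replicate 3 was labelled with another source and with sonication. Each replicate's list held 30000 regions that mix peaks with background, and its strongest regions were the 4548 of highest signal, as many as the optimal list holds. No read counts come with the lists, and the depth behind each value is unknown.

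GAPDH catalyses the step of glycolysis that oxidises glyceraldehyde 3-phosphate and reduces NAD+, and it runs in reverse in gluconeogenesis. In C. elegans, gpd-2 and gpd-3 encode the major isoenzyme, abundant in body wall muscle after embryogenesis, and gpd-1 and gpd-4 encode a minor one. The genes mai-1, gpd-2 and gpd-3 lie in a row on the same strand. They are a classic example of a worm operon, in which a shared precursor RNA is cut and trans-spliced into separate messengers. The protein of mai-1 is related to the mitochondrial ATPase inhibitor. NHR-25 is related to fly FTZ-F1 and mammalian SF-1, and worms need it for epidermal development and molting. Such receptors bind DNA as single molecules at an extended half-site, written YCAAGGYCR, where Y is C or T and R is A or G.

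The site at gpd-2 and gpd-3 held a copy of that half-site. The sequence within 50 bp of its summit (ce11, chrX:3115162-3115262, plus strand, RefSeq sequence) is shown because it carries the only half-site of the gpd windows that lay near a bound summit. Those within 50 bp of the summits of the nearest sites outside the windows follow, past the ends of gpd-3 (chrX:3111806-3111906) and gpd-1 (chrII:10395515-10395615), also on the plus strand. Capitals mark the half-site.
mai-1 intron: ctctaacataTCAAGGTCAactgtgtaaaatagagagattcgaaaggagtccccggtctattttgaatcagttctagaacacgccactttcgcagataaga
past gpd-3: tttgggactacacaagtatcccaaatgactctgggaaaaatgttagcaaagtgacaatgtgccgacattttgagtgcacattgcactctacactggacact
past gpd-1: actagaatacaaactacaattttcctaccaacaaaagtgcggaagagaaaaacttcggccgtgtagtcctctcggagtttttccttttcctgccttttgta

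The site at gpd-2 and gpd-3 stood in an intron of mai-1. Its region ran from 3115062 to 3115378 on chromosome X with the summit at 3115212, inside the intron of 302 bp from 3115054 to 3115355. The summit was 523 bp upstream of the annotated start of gpd-2 (X, 3113443 to 3114689, minus strand) and 1871 bp upstream of that of gpd-3 (X, 3112091 to 3113341, minus strand), just inside the 2000 bp limit. An annotated start of mai-1 (X, 3114668 to 3116589, minus strand) was nearer, at 366 bp, that of its shorter transcript at 3115578. The longer transcript starts further upstream, at 3116589, so the summit lay inside both. In an operon with a shared precursor RNA, the annotated starts of gpd-2 and gpd-3 need not be where transcription begins. These are therefore distances to annotated starts only, and an exon of mai-1 runs 21 bp past that of gpd-2. The position alone does not assign the site to gpd-2, to gpd-3 or to mai-1. In the optimal list its signal, a value of the authors' peak caller on a scale the deposited files do not state, was 265.0, rank 1334 of 4548, against a median of 181.7 over nuclear sites.

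The site was found in every replicate, at ranks that lay far apart. The strongest region overlapping it ranked 647 in replicate 1, 1452 in replicate 2 and 3298 in replicate 3, all among the strongest 4548. The signals were 77.5, 38.4 and 27.2 in the same order, each on the scale of its own list. The lowest and highest rank differed 5.10-fold, where the median over the 501 nuclear optimal sites within 250 ranks of it was 2.08-fold and 5.79% of those sites spread as widely. Of the same 501 sites, 486 were supported by all 3 replicates, against 2501 of the 4548 in the whole optimal list (55.0%), so support by all 3 was usual at this rank and less so over the list. Replicate 3 was the lowest at this site, and what part its other labels had in that was not tested.

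The position of the summit also moved between replicates. Relative to the optimal summit, that of replicate 1 lay 7 bp, that of replicate 2 56 bp and that of replicate 3 113 bp closer to gpd-2. The half-site TCAAGGTCA, at 3115172 to 3115180 on the plus strand and thus pointing away from the direction of transcription of the genes, was centred 36 bp from the optimal summit. It was 29 bp from the summit of replicate 1, 20 bp from that of replicate 2 and 77 bp from that of replicate 3. Within 50 bp it was therefore present at the summits of replicates 1 and 2 and not at that of replicate 3. Within 25 bp of the optimal summit there was none.

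**Figure D1:**
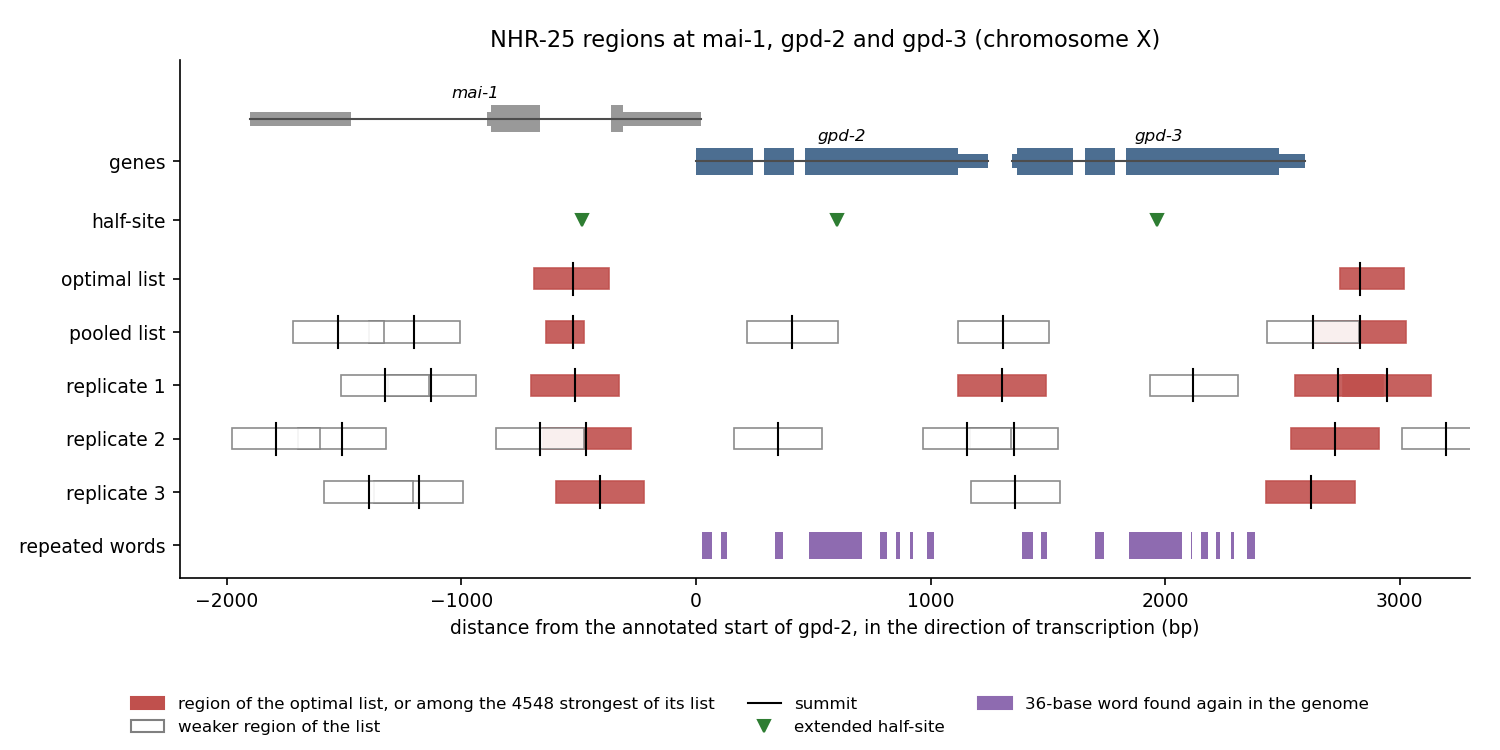
Regions of each list at mai-1, gpd-2 and gpd-3, against the distance from the annotated start of gpd-2 in bp. Boxes are regions, filled in the optimal list and for the 4548 strongest of any other list and open otherwise; black ticks are summits, green triangles extended half-sites, and purple bars 36-base words found again in the genome; thick blue and grey blocks are coding exons and thin ones untranslated exons. Filled regions stand over the mai-1 intron and past gpd-3 in every list, and replicate 1 has 2 filled regions past gpd-3 and 1 over the gap between the genes; the regions with summits inside gpd-2 or gpd-3 are open.

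Few bound sites carry this sequence. Of 4524 nuclear optimal summits, 64 (1.41%) had the extended half-site within 50 bp, and 26 (0.575%) had it with the same letters, TCAAGGTCA. Among the 64, the site in mai-1 ranked 16 by signal, and 31 of the 64 were supported by all 3 replicates, against 2501 of all 4548 optimal regions. Among the 26 it ranked 10. Of the 19973 genes, 58 (0.290%) had an optimal summit with the half-site in their window, gpd-2 and gpd-3 among them through the same site. The half-site was named by the rule that set out these genes, so these shares are a description.

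The same summit window held 3 of the 5 other motifs searched on both strands within 50 bp. The short receptor half-site AGGTCA, contained in TCAAGGTCA, was present there and at 6.56% of all nuclear optimal summits. The GAGA repeat (GAGAGA) was present there and at 24.6%, and a GATA site (A or T, then GATA, then A or G) was present there and at 24.3%. The E-box CACGTG and the TATA box TATAAA, at 5.88% and 6.92% of all summits, were not found in this window. The windows at the sites past gpd-3 and past gpd-1 held none of the 6 motifs. The GC content of the window in mai-1 was 40.6%, against a median of 42.6% over nuclear sites.

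By the window rule, 2 of the 4 genes had an optimal summit. Over all protein-coding genes 19.0% did, and 14.0% of the 6320 genes whose windows were of like length, from 2721 to 3751 bp. As a single site gave both calls, the count of 2 rests on 1 observation. It fell to 1 gene, gpd-2, with a window of 1 kb upstream, where the background was 15.6%. It fell to 0 when each summit went to the nearest start, which gave the site to mai-1.

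Outside the windows, sites stood just past the ends of gpd-3 and gpd-1. The site past gpd-3 (X, 3111672 to 3111944) had its summit 235 bp beyond the annotated end of the gene, between gpd-3 and gpcp-1, whose start was nearest at 1228 bp. Its signal was 219.8, rank 1761 in the optimal list. In replicates 1, 2 and 3 it ranked 1042, 2175 and 1982, a spread of 2.09-fold. The replicates' summits were spread over more bases here, at 112 bp further from gpd-3 in replicate 1 and 108 and 213 bp closer to it in replicates 2 and 3. That of replicate 3 was 22 bp past the end of gpd-3.

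The site past gpd-1 (II, 10395486 to 10395672) had its summit 216 bp beyond the end of gpd-1 (II, 10394129 to 10395349, plus strand) and 142 bp before the start of T09F3.4, the next gene on the same strand. Its signal was 238.2, rank 1569 in the optimal list, and its ranks in replicates 1, 2 and 3 were 1787, 2192 and 1507. The replicates' summits lay within 66 bp of the optimal one. Over all protein-coding genes 4.11% had an optimal summit within 500 bp past their end. With windows drawn from 2 kb upstream to that distance the background was 20.8%, and 3 sites and 3 of the 4 genes would be counted, gpd-1 through this site and gpd-4 still with none.

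**Figure D2:**
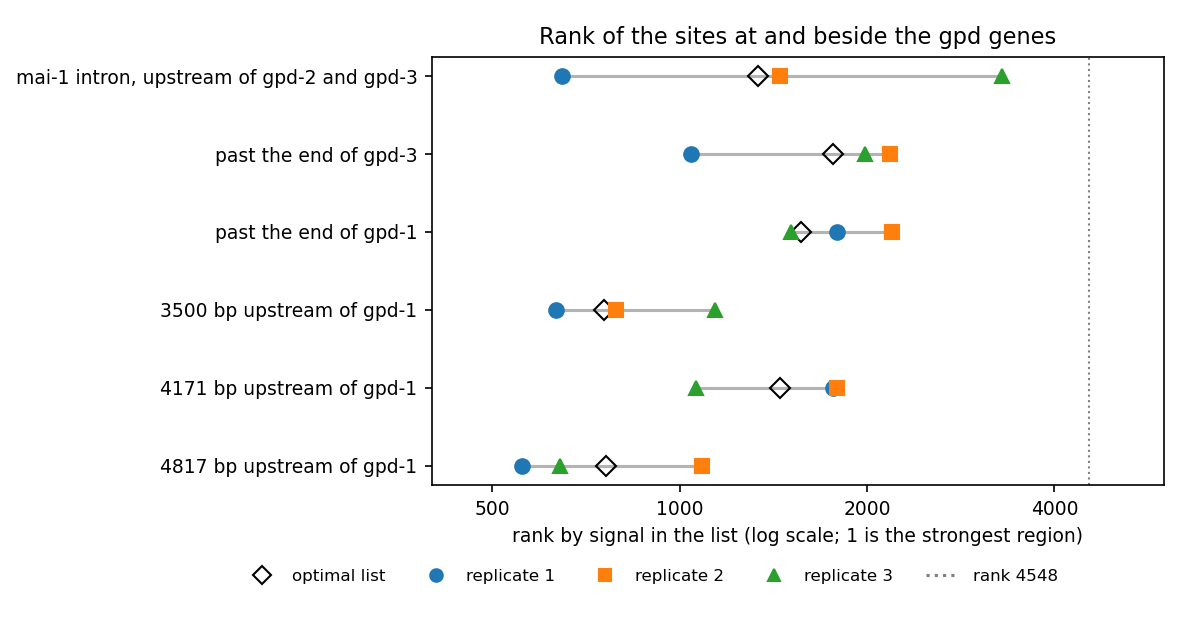
Rank by signal, on a log axis, of the 6 optimal sites at and beside the gpd genes, in the optimal list (open diamonds) and in replicates 1 to 3 (filled symbols, joined by a grey line from the lowest to the highest). The mai-1 intron site has the widest spread, from 647 to 3298, and every symbol lies left of rank 4548, the limit for the strongest regions.

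Further upstream of gpd-1 stood a cluster of 3 optimal sites, outside its window. Their summits lay 3500, 4171 and 4817 bp before the start of gpd-1 and 525, 1196 and 1842 bp before that of T09F3.2, the gene between them and gpd-1. An annotated start of T09F3.7 was almost as near, at 539, 1210 and 1856 bp. The summit 4171 bp before gpd-1 also lay in an exon of T09F3.6, so position alone does not assign the cluster to 1 gene. Their signals were 365.5, 251 and 364.2, ranks 755, 1448 and 762 in the optimal list, and all were among the strongest regions of the 3 replicates. A window of 5 kb upstream would give them to gpd-1, and the count of genes would be 3 of 4, where the background was 26.1%. None had the extended half-site within 50 bp.

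Within the window of gpd-1 itself, strong regions were seen in single replicates. Replicate 2 had a summit 324 bp upstream of the start at rank 2895, and replicates 1 and 3 had summits 245 and 173 bp upstream at ranks 10612 and 10405, below their strongest 4548. Replicate 3 had a summit 1950 bp upstream at rank 3947. In the list called on the 3 replicates pooled, the region 259 bp upstream ranked 7607. A region within 324 bp before the start thus recurred in the pooled list and in all 3 replicates, among the strongest regions in replicate 2 only. None passed into the optimal list.

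The copy gpd-4 (II, 10171268 to 10172498, plus strand) had 0 optimal summits in its window or within 500 bp past its end. Its strongest region ranked 2740 in replicate 2, 1656 bp upstream of the start, while the strongest in its window ranked 6222 in replicate 1 and 13147 in replicate 3. The pooled list had 4 summits in the window, the strongest at rank 6276, ahead of the 7607 of gpd-1. The upstream neighbour daf-19, a gene for an RFX transcription factor, starts inside this window on the opposite strand. For the share of genes with a summit among a replicate's strongest regions, the backgrounds were 19.3, 19.5 and 19.3% in replicates 1, 2 and 3. Replicate 1 gave gpd-2 and gpd-3 by this measure, replicate 2 all 4 genes, and replicate 3 all but gpd-4.

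**Figure D3:**
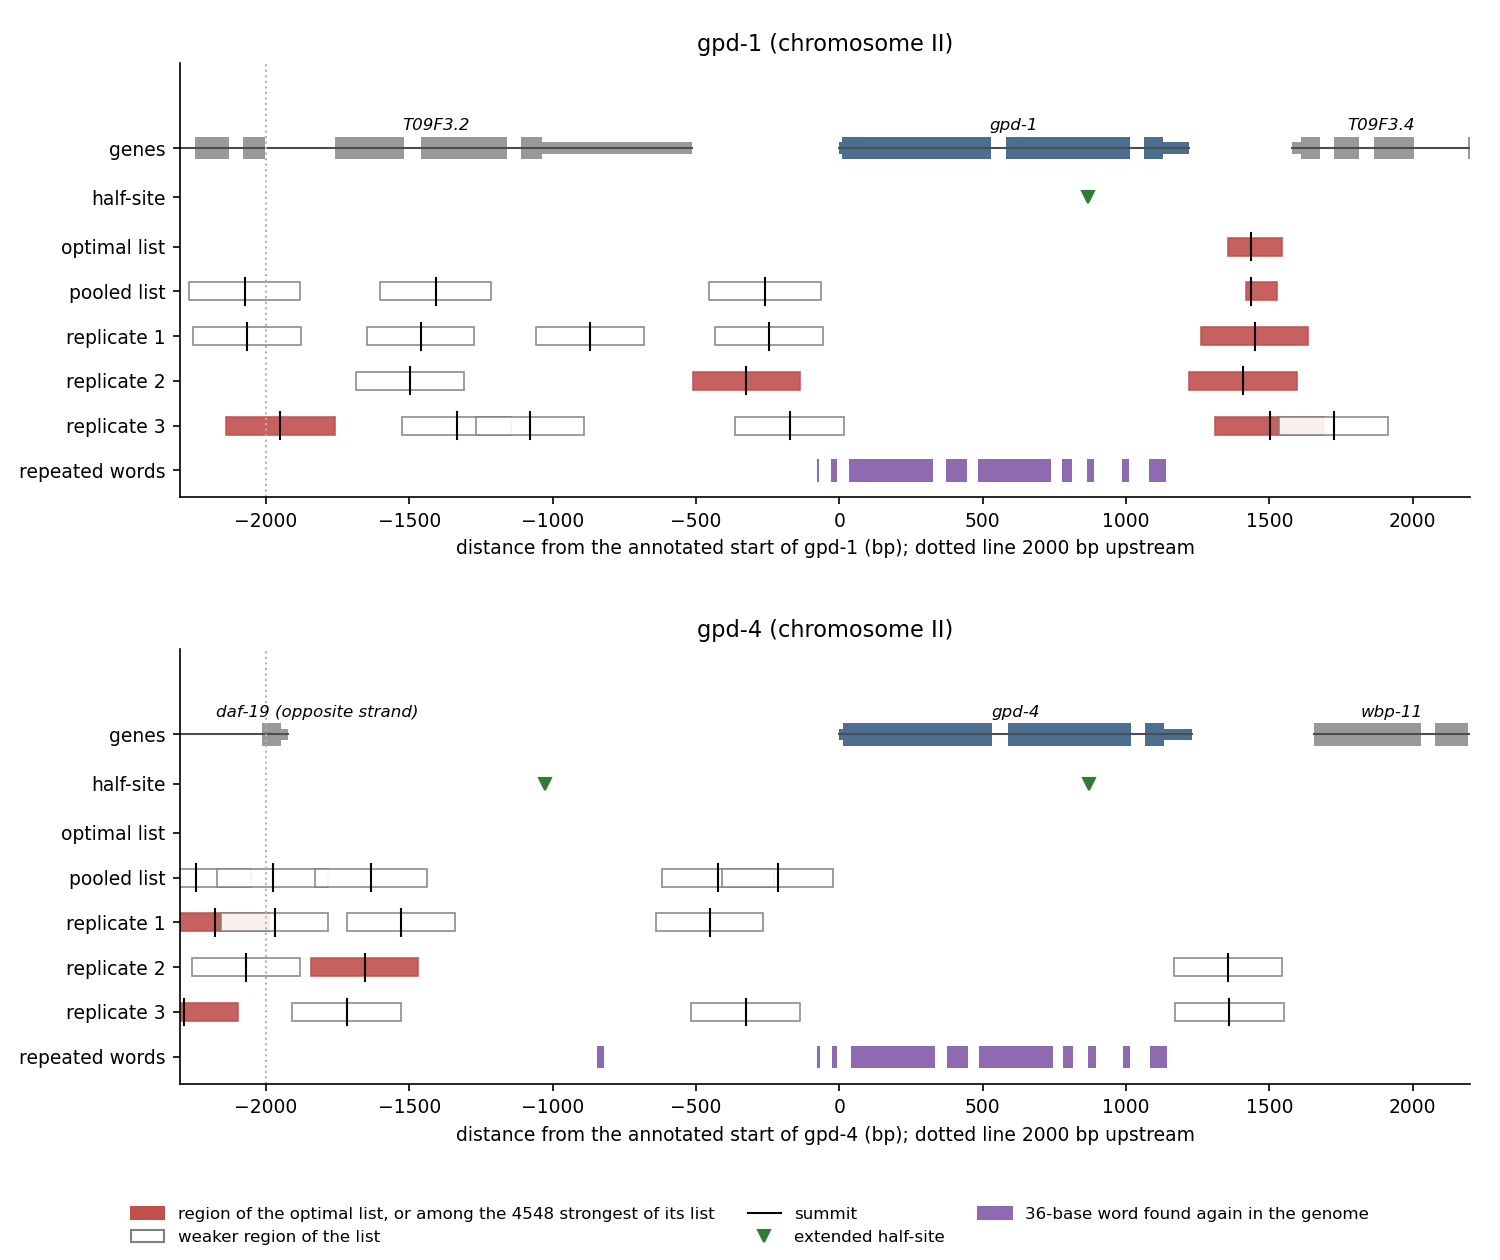
Regions of each list at gpd-1 and gpd-4, drawn as for gpd-2 and gpd-3, against the distance from each gene's annotated start in bp. The optimal list has a region past the end of gpd-1 and none in the span drawn for gpd-4, and no list has a summit inside either gene.

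The genes are close copies, which bears on where reads can be placed. The coding sequences all have 1023 bases. Those of gpd-1 and gpd-4, which are 221630 bp apart on chromosome II, differ at 10 bases, or 99.0% identity, and encode proteins that differ at 2 of 341 residues. Those of gpd-2 and gpd-3 differ at 27 bases (97.4% identity) and at 1 residue. Between the pairs the identity was 78.9 to 79.2% in bases and 87.4% in residues. The introns follow the pairs too: each gene has 2, of 52 and 48 bp in gpd-1 and gpd-4, of 49 and 46 bp in gpd-2 and of 49 and 47 bp in gpd-3.

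The start of the coding sequence shows the pattern. The first 90 coding bases are given on the coding strand, from the RefSeq sequence of the same build, with capitals where the 4 genes are not all alike.
gpd-1 (chrII:10394137-10394226): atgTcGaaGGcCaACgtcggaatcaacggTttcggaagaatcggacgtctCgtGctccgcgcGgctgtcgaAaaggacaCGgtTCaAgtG
gpd-4 (chrII:10171280-10171369): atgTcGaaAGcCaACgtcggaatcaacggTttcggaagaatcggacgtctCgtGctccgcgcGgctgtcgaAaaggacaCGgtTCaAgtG
gpd-2 (chrX:3114598-3114687): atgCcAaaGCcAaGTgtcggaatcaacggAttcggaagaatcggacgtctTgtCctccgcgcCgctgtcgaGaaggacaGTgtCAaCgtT
gpd-3 (chrX:3113232-3113321): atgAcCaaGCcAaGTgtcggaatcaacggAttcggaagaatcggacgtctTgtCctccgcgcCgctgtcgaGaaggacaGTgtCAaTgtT

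Much of each gene consists of words that occur elsewhere in the genome. Of the 36-base words in gpd-1, 65.6% were found again on either strand, and 65.1% of those in gpd-4. The shares were 36.1% in gpd-2 and 35.9% in gpd-3, against 7.93% over the whole genome. At 50 bases they were 58.0, 57.5, 26.9 and 26.8%, against 6.49%. The length of the reads and the handling of reads with several matches are not stated in any source used here, so these shares describe the reference and not the reads lost. No summit of the pooled list or of any replicate, background regions included, fell inside gpd-1 or gpd-4. Inside gpd-2 there were 1 in the pooled list, 0 in replicate 1, 2 in replicate 2 and 0 in replicate 3, and inside gpd-3 there were 0 in the pooled list and 1 in each replicate. Those of replicates 2 and 3 in gpd-3 lay 7 and 13 bp from its start. Of 3443 protein-coding genes of like length, from 971 to 1501 bp, 15.2% had a summit inside the gene in the pooled list and 16.7, 20.5 and 17.7% in replicates 1, 2 and 3. A gene of this length without a summit inside was thus the common case. What part the repeated words had in these counts was not tested.

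The regions that were called lay in unique sequence, as was usual for the optimal list. Over its 4524 nuclear regions the median share of repeated 36-base words was 0%, and 0.354% of regions had more repeated than unique words. All 36-base words of the region in the mai-1 intron, 282 of them, occurred once in the genome, as did those of the sites past gpd-3 and past gpd-1. The 2 kb upstream of gpd-2 held 0% repeated words and those of gpd-1 and gpd-4 1.02 and 2.24%. The upstream sequence of gpd-3, which includes gpd-2, held 22.2%. Upstream of the start, gpd-1 and gpd-4 could be aligned over 401 bases, of which 90.3% were identical.

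Other copies of the extended half-site stood in the genes themselves, without a bound summit. Each pair shared a coding copy, at coding bases 803 to 811 of gpd-1 and gpd-4 and at 500 to 508 of gpd-2 and gpd-3. They are shown on the coding strand with 16 bases on each side and the half-site in capitals, because they are the copies that the paralogs share.
gpd-1 (chrII:10394975-10395015): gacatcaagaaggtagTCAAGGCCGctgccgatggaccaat
gpd-4 (chrII:10172118-10172158): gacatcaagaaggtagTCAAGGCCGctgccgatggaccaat
gpd-2 (chrX:3114069-3114109): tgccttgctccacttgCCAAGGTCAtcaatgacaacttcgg
gpd-3 (chrX:3112702-3112742): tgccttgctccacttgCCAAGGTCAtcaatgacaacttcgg

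The optimal summit nearest to these coding copies was 570 bp away in gpd-1, 28768 bp in gpd-4, 1123 bp in gpd-2 and 866 bp in gpd-3. All of the 28 words of 36 bases across the copies in gpd-2 and gpd-3 occurred again in the genome, and 17 of 28 across those in gpd-1 and gpd-4. A further copy, TCAAGGTCG, lay in unique sequence 1028 bp upstream of gpd-4. There the nearest summits were 605 bp away in the pooled list and 500 to 690 bp away in the replicates. Of the 6 half-sites in the windows, the copy in the mai-1 intron was thus the one within 50 bp of an optimal summit. Over all gene windows 11.2% held the half-site, and 7.86% of those of like length.

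A weak region recurred between gpd-2 and gpd-3. The annotated genes are separated by 101 bp (X, 3113342 to 3113442), all of it in unique 36-base words. The pooled list had a summit in this gap at 3113378, rank 6294, and replicate 1 had one at 3113384, rank 4047, among its strongest regions. Replicates 2 and 3 had summits at 3113334 and 3113328, ranks 9990 and 9624, those 7 and 13 bp inside gpd-3. None of these passed into the optimal list, and how often such weak regions recur between genes was not computed.

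The other glycolysis genes were a mixture of bound and unbound. Of 19 genes of glycolysis and lactate formation, 9 had an optimal summit in the same kind of window, where the background was 19.0%, and without the gpd genes it was 7 of 15. The windows of these 15 were longer, with a median of 5044 bp against 4027 bp over all genes, and longer windows hold more summits. The hexokinase genes hxk-1, hxk-2 and hxk-3, which act first in the pathway, all had sites. Their windows were long, at 9211, 13587 and 14402 bp, as was that of pyk-1 at 11057 bp. No share over genes with such long windows was computed. The site of hxk-1 had the highest signal of the list, 438.8 (rank 523), and those of hxk-2 and hxk-3 had 142.7 and 169.6. The aldolase gene aldo-2 had 155.7, the lactate dehydrogenase gene ldh-1 189.8, the pyruvate kinase gene pyk-1 114.2 and the phosphoglycerate mutase gene ipgm-1 108.0, near the lowest signal in the optimal list, 106.6.

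The sites of hxk-1, hxk-3, aldo-2 and ldh-1 were supported by all 3 replicates, as was that of gpd-2 and gpd-3. The site of hxk-2 was supported by 2 replicates and those of pyk-1 and ipgm-1 by 1. The genes gpi-1 (glucose-6-phosphate isomerase), pfk-1.1 and pfk-1.2 (phosphofructokinase), aldo-1, tpi-1 (triosephosphate isomerase), pgk-1 (phosphoglycerate kinase), enol-1 (enolase) and pyk-2 had 0 optimal summits, as did gpd-1 and gpd-4. No glycolysis gene other than gpd-2 and gpd-3 had the extended half-site at the summit of its strongest site.

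**Figure D4:**
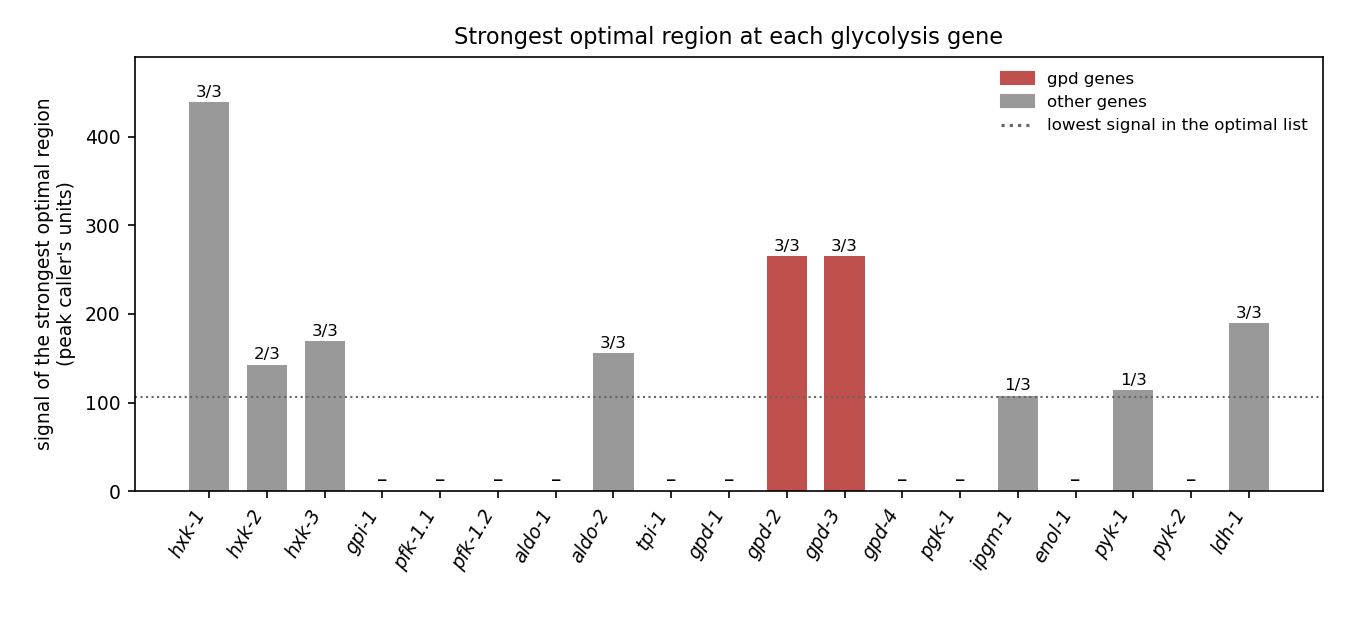
Signal of the strongest optimal region in the window of each glycolysis gene, in the order of the pathway, in the peak caller's units; numbers above the bars give how many of 3 replicates support it, and a dash marks a gene with no optimal summit. The shared site gives gpd-2 and gpd-3 the same bar, at 265.0, below hxk-1 at 438.8 and above the other bars.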

How the data were processed

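Regions bound by tagged NHR-25 were listed for each of 3 replicates of L2 larvae, numbered as in the labels. Per the note deposited with the samples, regions were called for each replicate and on the 3 pooled against a shared control, and the optimal list was derived from these lists. That control was not analysed here, and no source used here names the aligner or the peak caller. Each region has a signal from the authors' peak caller, in a unit the deposited files do not state, and a deposited −log10 q-value, for which 3849 of 4548 optimal regions share the top value. Ranks were therefore taken from the signal, within a list. At the 3722 summits that the optimal and the pooled list share, the optimal signal was a median 2.02 times the pooled one, so signals of different lists are not on a common scale.

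The ce11 lists were used with Ensembl release 115 (WBcel235) and the RefSeq sequence of that assembly; ce10 lists were not used. Summits are column 2 plus column 10, written 1-based. Support by a replicate meant an overlap of at least 1 bp with any of its 4548 strongest regions. Of several overlapping regions the strongest was taken. Both strands were searched for motifs, up to 50 bp from each summit. Words of 36 and 50 bases were counted on both strands of the whole genome. The upstream alignment was a local one of 1000 bp (Biopython 1.88), with Python 3.11.15 and pandas 2.3.3. The functions were tested on simulated data.

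The members, the rule and the lists were chosen with earlier results of these data known, so no test was run. The genes named are the 4 members, genes near their sites, the bound glycolysis genes, up to 2 of highest signal in each of 3 other lists, and the nearest genes of the 3 sites most alike in rank; glycolysis genes without a site, daf-19 and gpcp-1 were added with their values known. The alternatives tried were the upper part of the optimal list, other windows, the nearest start, other rules for support, other motif distances and leaving out each replicate.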

Additional observations from a re-analysis of the deposited data

How the results depend on the processing

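The count of 2 genes with an optimal summit was 1 with a window of 1 kb upstream, 3 with 5 kb upstream and 0 with each summit given to the nearest start. The count of 1 optimal summit in the windows was 4 with 5 kb upstream. Drawing the windows to 500 bp past the gene end, an alternative chosen after seeing the data, gave 3 sites, of which 3 were supported by all replicates. Support of the mai-1 intron site by all 3 replicates was lost (0 sites) with summits within 100 bp and with 0.5 times as many regions per replicate. The half-site was lost (0 sites) within 25 bp of the summit and at the summit of the region of replicate 3. The 9 glycolysis genes were 4 in the 0.5 of the optimal list with the higher signals, gpd-2 and gpd-3 among them through 1 site. The share over all genes was not computed for that part of the list, so the fall has no background beside it. Leaving out each replicate in turn kept the same optimal list and asked for support by both others. A site supported by all 3 replicates passes each time, so the counts of 2 genes, 1 summit and 1 supported site could not change. The glycolysis genes were then 6 to 7, with no share over all genes computed beside them. The optimal list was itself derived from these replicates, so their support is no independent evidence. No paired analysis was possible because the samples form 1 group. The depth of the libraries is unknown, so a gene without a site is one with none at this threshold.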

Other observations

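Genes of neighbouring carbon pathways were read in the same way, from 2 kb upstream to the gene end, against the background of 19.0%. Of 24 genes of pyruvate oxidation and the tricarboxylic acid cycle, 14 had an optimal summit, with the highest signals at dld-1 (706.7, rank 179), the dihydrolipoamide dehydrogenase gene, and aco-2 (573.0, rank 286), the mitochondrial aconitase gene. Their median window of 4070 bp was close to that of all genes, 4027 bp. Of 5 gluconeogenesis genes 3 had one, with 506.2 at pyc-1, which encodes pyruvate carboxylase, and 328.9 at pck-2, a phosphoenolpyruvate carboxykinase gene. Their windows were longer than those of all genes, with a median of 6747 bp. Of 13 genes of glycogen and trehalose metabolism 5 had one, with 439.1 at tre-1, a trehalase gene, and 261.2 at gob-1, a trehalose-6-phosphate phosphatase gene, and their windows were longer, with a median of 8020 bp. None of the strongest sites of these genes had an extended half-site at its summit.

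The nuclear optimal sites most like the mai-1 intron site in their 3 replicate ranks are named here by the nearest annotated start only. For sru-42, a chemoreceptor gene on chromosome V, the summits lay 1494 and 1698 bp from the start. For F20D1.3 on chromosome X the summit lay 261 bp from the start. That of sru-42, a region with 2 listed summits, ranked 729, 1324 and 3464 in replicates 1, 2 and 3, and that of F20D1.3 ranked 614, 1620 and 3790. Neither had the half-site at its summit, and the likeness is over 3 values only.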
